A study of Homo sapiens with 4 samples.

Results

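Translation initiation factors are the proteins that bring the small ribosomal subunit, the initiator tRNA and the messenger RNA together and find the start codon. The genes described here are the protein-coding genes whose symbol starts with EIF followed by a digit from 1 to 6, leaving out the eIF2 kinases (EIF2AK genes), the eIF4E-binding proteins (EIF4EBP genes) and pseudogenes. That rule gave 49 of the 57820 gene IDs in the complete files, or of 19263 protein-coding IDs. They were measured in 4 RNA-seq libraries of MOLM-13, a cell line established from acute myeloid leukaemia, with an MLL-AF9 fusion and an FLT3 internal tandem duplication. In the untreated control group (n = 2) the cells received nothing. In the GADD45g induced group (n = 2) doxycycline, labelled as 1 mg/ml, was given over 4 days and switched on extra GADD45G, a small protein induced by growth arrest and DNA damage. The design text describes the libraries of a group as biological replicate experiments. The sources used here do not give the promoter or vector of the construct, whether the line is 1 clone, or whether the untreated cells carry the construct. Effects of doxycycline itself and of GADD45G cannot be told apart.

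In textbook outline, eIF2 carries the initiator tRNA to the small subunit, eIF2B recharges eIF2 with GTP, and eIF1, eIF1A and eIF5 control how the start codon is chosen. The many-subunit complex eIF3 holds the small subunit and the messenger RNA, while the cap-binding protein eIF4E, the scaffold eIF4G and the helicase eIF4A form eIF4F, which loads capped messages. Cells tune these steps through eIF2 alpha phosphorylation and through binding proteins that hold eIF4E.

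The targeted gene, GADD45G, stood at 10.5 and 0.289 RPKM in the controls and at 3236 and 2118 RPKM after induction, where RPKM is the read count scaled to gene length and to library size. Depths recovered from the values were 15683931 to 18895470 reads per library. Of 7 myeloid markers 4 to 6 were at or above 1 RPKM in each library. Their summed level was 1287 and 991 RPKM in the controls and 411 and 378 RPKM after induction. LYZ made up most of it, at 1173 and 868 RPKM against 268 and 242 RPKM, while PTPRC (25.1 and 23.9 against 28.5 and 36.1 RPKM) and SPI1 (68.7 and 74.7 against 101 and 84.0 RPKM) had higher values in both induced libraries, so the list did not fall as a whole. CD33 (17.6 and 21.5 against 12.5 and 13.7 RPKM) and FLT3 (0.958 and 1.19 against 0.0889 and 0.0451 RPKM) had lower values in both induced libraries. MPO stood at 0.162 to 0.278 RPKM and CSF1R at 0.941 to 1.51 RPKM over the 4 libraries. Epithelial markers were present in untreated control 1 and GADD45g induced 1, with 5 of 5 at or above 1 RPKM in each and summed levels of 40 and 39.4 RPKM. In untreated control 2 and GADD45g induced 2 their sums were 0.0311 and 0.0959 RPKM, with EPCAM and KRT19 at 0 in both. Fibroblast markers summed to 0.0299 to 0.375 RPKM. The part of these cell-type signals in the results below was not tested, and differences within each replicate number are given beside the pooled counts. The median log2 change over all tested genes was -0.21, and trimmed-mean (TMM) scaling moved it by 0.22, so each change is best read against that median.

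Of the 49 genes, 43 passed the filter of a mean of 1 RPKM and were listed in all 4 files. Among these 43, 21 were called lower and 2 higher by limma at an adjusted p under 0.05, and 20 were not called. Over all 10762 tested genes 26.7% were called lower and 12.2% higher, so the lower share of the initiation factors, 48.8%, lay above that background and the higher share, 4.65%, below it. The median log2 change of the 43 genes was -0.71, on the log2(RPKM + 1) scale used for every change here, and single genes ran from -1.43 to 1.35. Both induced libraries lay below both controls for 28 of the genes and above both for 4, where 45.8% and 24.1% of all tested genes did so. Within the replicate 1 libraries 35 of 43 (81.4%) were lower after induction (median difference -0.74), against 60.6% of all tested genes (-0.21). Within the replicate 2 libraries 34 (79.1%) were lower (-0.65), against 62.5% of all tested genes (-0.22). After TMM scaling 13 were called lower and 2 higher, against 19.0% and 17.8% of all tested genes, and their median was -0.47. The 13 were all among the 21, and the 8 lost were EIF1AX, EIF2S2, EIF2A, EIF3A, EIF3C, EIF3H, EIF4E3 and EIF5A. In all 17 alternative settings tried, 10 of the 21 were called lower, namely EIF2S3, EIF2D, EIF5B, EIF2B3, EIF3B, EIF3E, EIF3F, EIF3K, EIF3L and EIF3M. With no filter on low values, EIF4A3 (limma adjusted p = 0.0570) and 9 of the 21 lost the call, namely EIF1AX, EIF2S2, EIF2A, EIF3A, EIF3C, EIF3J, EIF4B, EIF4E3 and EIF5A (0.0503 to 0.196). EIF3C, 1 of the 21, and EIF4A1, not called, passed the filter only through the controls, with induced means of 0.772 and 0.790 RPKM.

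Summed over the 43 genes, the level was 1954 and 1757 RPKM in the controls and 1311 and 1248 RPKM after induction. As a share of the RPKM total of all tested genes this was 0.668% and 0.604% before induction, and 0.455% and 0.444% with it, so the groups did not overlap on either scale. In bulk RNA, fewer cells of a type and less RNA per cell cannot be told apart. The genes differed widely in level. In the controls EIF3E ranked first with a mean of 133 RPKM, then EIF4H (119 RPKM), EIF2S3 (118 RPKM), EIF3L (93.0 RPKM) and EIF5A (92.4 RPKM). The 2 control values of each of these overlapped those of its neighbour in the order. After induction EIF3I ranked first with 117 RPKM, followed by EIF4H with 104 RPKM and EIF1 with 92.7 RPKM, while EIF3E stood at rank 9. The induced values of EIF3I and EIF4H overlapped, as did those of EIF4H and EIF1. The plot of levels and changes gives every tested gene by role.

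**Figure D1:**
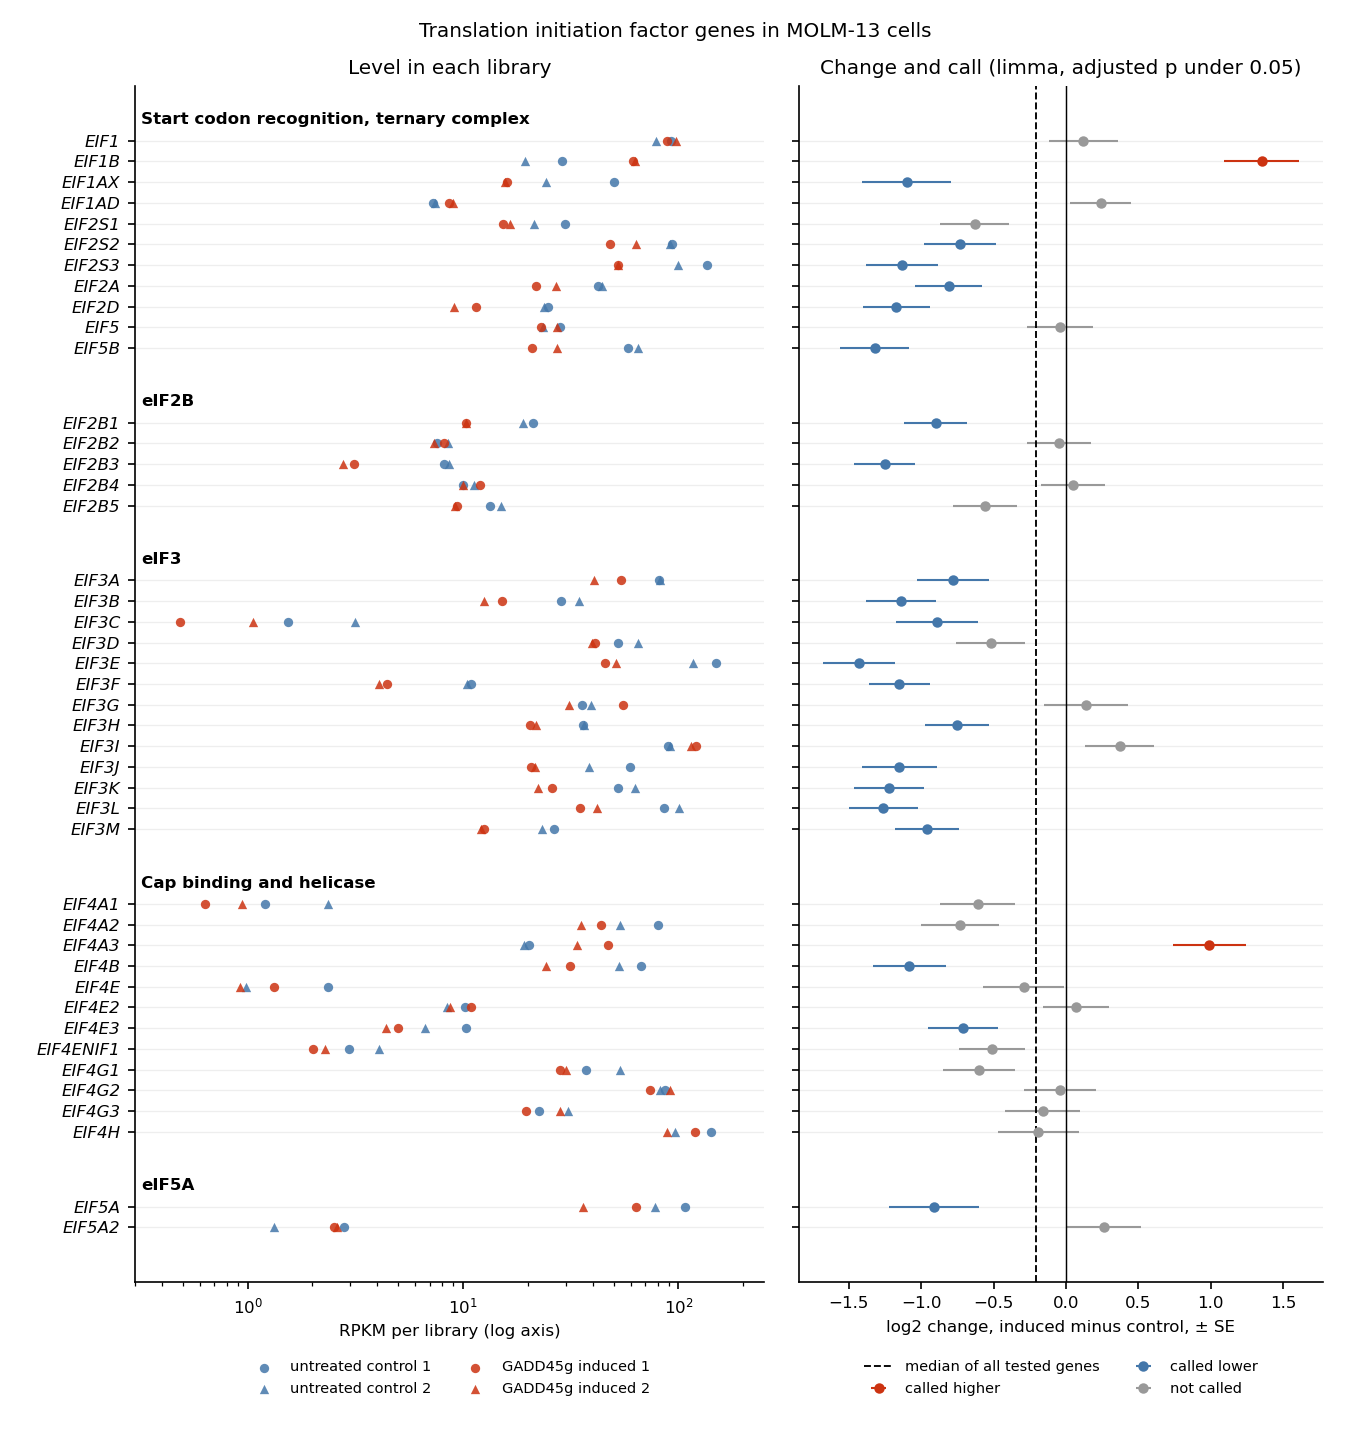
Left, RPKM of the 43 tested initiation factor genes in each of the 4 libraries on a log axis, grouped by role. Right, their log2 change (GADD45g induced minus untreated control) with the standard error, coloured by the limma call; 21 are called lower and 2, EIF1B and EIF4A3, higher, and the dashed line marks the median of all tested genes at -0.21.

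Among the factors of start codon recognition and the ternary complex of eIF2, GTP and initiator tRNA, 6 of 11 tested genes were lower (54.5%, against 26.7% of all tested genes) and 1 was higher (median log2 change -0.73). After TMM scaling 3 were lower (27.3%, against 19.0%). EIF1B, a close paralog of the start codon fidelity factor EIF1, was the initiation factor with the largest increase. It stood at 28.9 and 19.5 RPKM in the controls and at 61.5 and 62.7 RPKM after induction (log2 change 1.35 ± 0.26 (SE), limma adjusted p = 0.00191). Both induced values were above both controls, and the call held in all 17 alternatives. EIF1 itself was at 92.2 and 79.1 RPKM in the controls and 88.2 and 97.1 RPKM after induction, so its groups overlapped (log2 change 0.12, 95% interval -0.42 to 0.65). The ratio of EIF1B to EIF1 within a library was 0.313 and 0.246 in the controls and 0.697 and 0.645 after induction. These ratios do not overlap, but an exact two-sided permutation test of 2 against 2 libraries cannot give a p below 0.333.

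All 3 subunit genes of eIF2 had lower values in both induced libraries. EIF2S3, the gamma subunit that binds GTP and the initiator tRNA, was at 136 and 99.9 RPKM in the controls and 52.7 and 52.4 RPKM after induction (log2 change -1.13 ± 0.25, limma adjusted p = 0.00498). EIF2S2, the beta subunit, was lower by a smaller amount, from 92.4 ± 1.07 to 55.7 ± 10.9 RPKM (SD, n = 2; limma adjusted p = 0.0382). EIF2S1, the alpha subunit that the stress kinases phosphorylate, went from 25.6 ± 5.99 to 15.9 ± 0.851 RPKM without passing the test (log2 change -0.63, limma adjusted p = 0.0604). It passed without untreated control 2 (adjusted p = 0.0374), was at -0.40 without untreated control 1 (0.233), and did not pass without GADD45g induced 1 (0.221) or GADD45g induced 2 (0.152). EIF1AX, which encodes eIF1A, was at 50.1 and 24.3 RPKM in the controls, a wide gap, and at 16.0 and 15.6 RPKM after induction (log2 change -1.10, limma adjusted p = 0.0167). The call of EIF2S2 was lost without any 1 of the libraries (limma adjusted p = 0.0503 to 0.239). That of EIF1AX was lost without untreated control 1, GADD45g induced 1 or GADD45g induced 2 (0.0595 to 0.102), with a log2 change of -0.59 without untreated control 1.

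EIF5B, the GTPase that joins the large subunit at the end of initiation, fell from 58.1 and 65.0 RPKM to 20.9 and 27.4 RPKM (log2 change -1.32 ± 0.24, limma adjusted p = 0.00162). EIF2D, which acts in non-canonical initiation and ribosome recycling, fell from 24.9 and 23.8 RPKM to 11.5 and 9.08 RPKM (log2 change -1.17 ± 0.23, limma adjusted p = 0.00221). Neither pair of groups overlapped. EIF2A, a factor that can deliver initiator tRNA without eIF2, was 1.78-fold lower (limma adjusted p = 0.0184), a call lost without untreated control 1, untreated control 2 or GADD45g induced 1 (0.0576 to 0.137). EIF5, which triggers GTP hydrolysis on eIF2, had overlapping groups, at 25.9 ± 3.2 and 25.1 ± 3.07 RPKM (log2 change -0.04, 95% interval -0.56 to 0.47). EIF1AD, which shares a domain with eIF1A, had a log2 change of 0.24 (95% interval -0.23 to 0.70).

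The promoters of the initiation factor genes were compared by sequence, since 28 of the 43 tested genes lay below both controls, against 45.8% of all tested genes. RefSeq start sites (GRCh38.p14) were matched for 42 of the 49 genes, and windows of 250 bases before to 50 after the start were searched on both strands. The E-box CACGTG, which reads the same on both strands and is the core site of MYC and MAX, was found in 10 of 42 genes (23.8%), against 13.1% of 8396 tested genes. Counted by window it was in 17.2% of their 58 windows, against 7.26% of all windows. MYC, the transcription factor, stood at 35.1 and 42.9 RPKM in the controls and 1.59 and 1.07 RPKM after induction. Whether the level of MYC bears on the initiation factor genes was not tested. Of the 16 genes called lower that have a window 4 hold the E-box, and of the 2 called higher both do. The ETS core CCGGAAG was found in 26.2% of the initiation factor genes against 24.1% of tested genes, the YY1 sequence AAGATGGC in 9.52% against 7.22%, and the palindromic NRF1 consensus in 0 of 42 against 2.89%. The shares by gene set the 42 genes, which include the untested EIF2S3B and EIF6, against tested genes only. A match is a description of these letters in these windows and not a measured binding site. The 6 called genes with an E-box are shown because they hold the same letters and include both directions; each is printed 5′ to 3′ on the strand of its gene, with the E-box in capitals and up to 50 bases on each side, ending at the start site where that is nearer.
EIF1B, called higher, GRCh38.p14 chr3:40309603-40309706, plus strand: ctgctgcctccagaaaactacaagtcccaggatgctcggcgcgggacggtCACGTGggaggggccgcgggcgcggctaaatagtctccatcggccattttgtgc
EIF4A3, called higher, GRCh38.p14 chr17:80147194-80147299, minus strand: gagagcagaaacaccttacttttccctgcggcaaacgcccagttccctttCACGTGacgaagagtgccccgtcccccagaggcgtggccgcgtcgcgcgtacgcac
EIF2B3, called lower, GRCh38.p14 chr1:44986719-44986824, minus strand: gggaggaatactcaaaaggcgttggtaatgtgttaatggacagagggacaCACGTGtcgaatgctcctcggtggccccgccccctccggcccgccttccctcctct
EIF3F, called lower, GRCh38.p14 chr11:7987219-7987324, plus strand: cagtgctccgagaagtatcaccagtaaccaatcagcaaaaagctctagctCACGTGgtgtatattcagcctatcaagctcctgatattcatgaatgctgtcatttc
EIF3K, called lower, GRCh38.p14 chr19:38619035-38619140, plus strand: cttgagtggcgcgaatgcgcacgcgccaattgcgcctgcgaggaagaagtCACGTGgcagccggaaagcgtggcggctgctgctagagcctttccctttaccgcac
EIF4B, called lower, GRCh38.p14 chr12:53006384-53006455, plus strand: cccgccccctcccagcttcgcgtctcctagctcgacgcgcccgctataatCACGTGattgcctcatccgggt

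The 5 genes of eIF2B, the exchange factor that returns eIF2 to its GTP-bound state, did not move together. EIF2B3, the gamma subunit, was at 8.17 and 8.65 RPKM in the controls and 3.13 and 2.78 RPKM after induction (log2 change -1.25 ± 0.21, limma adjusted p = 0.000954). EIF2B1, the regulatory alpha subunit, fell from 20.1 ± 1.63 to 10.3 ± 0.0633 RPKM (SD, n = 2; limma adjusted p = 0.00801), a call that ended without GADD45g induced 1 (0.0502) or GADD45g induced 2 (0.0548). EIF2B5, the catalytic epsilon subunit, had both induced values below both controls, at 14.2 ± 1.13 and 9.32 ± 0.142 RPKM, and did not pass (log2 change -0.56, limma adjusted p = 0.0628). The beta and delta subunits overlapped between groups. EIF2B2 changed by -0.05 (95% interval -0.53 to 0.42) and EIF2B4 by 0.05 (-0.44 to 0.54) on the log2 scale.

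In the eIF3 complex 10 of 13 tested genes were lower (76.9%, against 26.7% of all tested genes) and 0 higher, with a median log2 change of -0.96. After TMM scaling 7 were lower (53.8%, against 19.0%). EIF3E, the most abundant initiation factor gene in the controls, stood at 150 and 117 RPKM in the controls and 45.8 and 51.2 RPKM after induction (log2 change -1.43 ± 0.25, limma adjusted p = 0.00123). EIF3L was at 85.4 and 101 RPKM against 34.8 and 41.9 RPKM (log2 change -1.26 ± 0.24, limma adjusted p = 0.00221); 41.1% of its exon length is shared with other genes on the same strand in GENCODE 29, so its level may depend on how overlapping reads were counted. EIF3K was at 52.4 and 63.0 RPKM against 25.8 and 22.4 RPKM (log2 change -1.22 ± 0.24). EIF3E, EIF3K and EIF3L belong to the octamer of PCI and MPN domain proteins that forms the body of eIF3, and none of the 3 overlapped between groups. EIF3F, another octamer member, was at 10.9 and 10.4 RPKM in the controls and 4.43 and 4.08 RPKM after induction (log2 change -1.15 ± 0.21, limma adjusted p = 0.00166). EIF3M, EIF3H, EIF3A and EIF3C complete the octamer. EIF3M, EIF3H and EIF3A were called lower, with folds of 2.02, 1.71 and 1.72. EIF3C was 3.03-fold lower and is counted among the 10 lower genes. Its call and fold are a description, since this gene passed the filter only through the controls. EIF3H was lost without any 1 of the libraries (limma adjusted p = 0.0593 to 0.120). EIF3A was lost without untreated control 1, untreated control 2 or GADD45g induced 2 (0.0881 to 0.206), and EIF3C without untreated control 2 (log2 change -0.54, 0.162) or GADD45g induced 1 (0.220).

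Outside the octamer the eIF3 genes split. EIF3B, a scaffold that holds EIF3G and EIF3I, was at 28.5 and 34.7 RPKM in the controls and 15.1 and 12.5 RPKM after induction (log2 change -1.14 ± 0.24, limma adjusted p = 0.00308). EIF3J, a loosely bound subunit, was at 59.7 and 38.4 RPKM against 20.6 and 21.5 RPKM (log2 change -1.15 ± 0.26, limma adjusted p = 0.00554). Both genes had controls above every induced value. EIF3I, in contrast, was at 89.2 and 91.2 RPKM in the controls and 121 and 114 RPKM after induction. These groups did not overlap, and the change did not pass (log2 change 0.37, 95% interval -0.16 to 0.90, limma adjusted p = 0.243). EIF3G was at 35.7 and 39.3 RPKM against 55.2 and 31.0 RPKM, so its induced libraries lay on either side of the controls (log2 change 0.14, 95% interval -0.49 to 0.78). Its change was -0.26 without GADD45g induced 1. The ratio of EIF3I to EIF3B within a library was 3.13 and 2.63 in the controls and 8.01 and 9.14 after induction. That of EIF3G to EIF3B was 1.25 and 1.13 against 3.67 and 2.49. Of these genes only EIF3B was called, so both ratios carry its decrease and are a description. An exact two-sided permutation test of 2 against 2 libraries cannot give a p below 0.333 for them either. EIF3D, a subunit that can itself bind caps, was at 58.6 ± 8.69 and 40.2 ± 0.865 RPKM (limma adjusted p = 0.106).

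**Figure D2:**
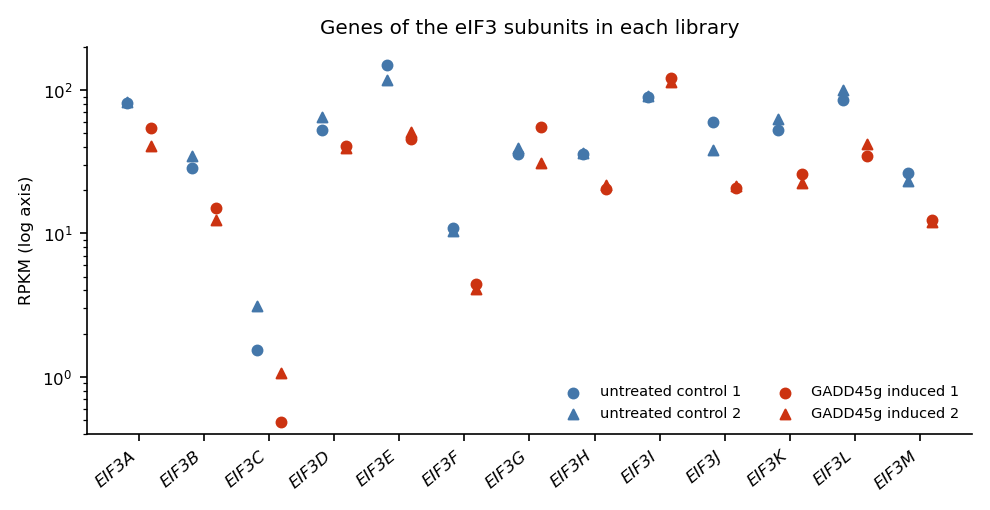
RPKM of the 13 tested eIF3 subunit genes in each library on a log axis, with the controls to the left and the induced libraries to the right of each gene. Both induced values lie below both controls for 11 genes, above both for EIF3I, and on either side for EIF3G. Of all tested genes 45.8% lie below both controls and 24.1% above both.

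Among genes of cap binding and of the helicase step 2 of 12 tested genes were lower (16.7%, against 26.7% of all tested genes) and 1 higher (8.33%, against 12.2%), with a median log2 change of -0.40. After TMM scaling 1 was lower (8.33%, against 19.0%) and 1 higher (8.33%, against 17.8%). With a replicate block, which the labels do not establish, 5 of 12 were lower (41.7%, against 31.5%). EIF4A3, a helicase that sits in the exon junction complex on spliced messages rather than in eIF4F, was at 20.2 and 19.1 RPKM in the controls and 47.2 and 33.9 RPKM after induction (log2 change 0.99 ± 0.25, limma adjusted p = 0.00872). Both induced values were above both controls, and the call was lost without untreated control 2 (0.0546) or GADD45g induced 1 (0.0922). EIF4A2, a helicase of eIF4F, was at 80.7 and 53.3 RPKM against 43.6 and 35.4 RPKM (log2 change -0.73, limma adjusted p = 0.0549), which passed without untreated control 2 (0.0350) and was at -0.43 without untreated control 1 (0.259). The ratio of EIF4A3 to EIF4A2 was 0.250 and 0.358 in the controls and 1.08 and 0.957 after induction. This ratio carries the increase of EIF4A3 and is a description. EIF4A1, usually taken as the main eIF4A, was listed at only 1.2 and 2.35 RPKM in the controls and 0.637 and 0.942 RPKM after induction, from 64 to 196 reads per library (limma adjusted p = 0.0849). It passed without untreated control 1 (0.0271) and was at -0.30 without untreated control 2 (0.307). In GENCODE 29 48.6% of the exon length of EIF4A1 is shared with exons of other genes on the same strand, and how such reads were counted is not stated. Over protein-coding genes above 0, the 14767 that share none had a median of 2.56 RPKM. The 2312 that share up to 50% had a median of 3.35 RPKM and the 322 that share more 0.191 RPKM. At 48.6% EIF4A1 lies close to the 50% boundary between these ranges, so the medians do not set an expected level for it. Whether the overlap bears on the level of EIF4A1 was not tested.

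EIF4B, which stimulates the helicase, fell from 67.1 and 53.0 RPKM to 31.4 and 24.4 RPKM (log2 change -1.08 ± 0.25, limma adjusted p = 0.00602), a call lost without untreated control 1 (0.0528) or GADD45g induced 2 (0.0603). EIF4H, which acts on the same helicase, stayed among the most abundant, at 142 and 96.3 RPKM against 119 and 88.3 RPKM (log2 change -0.19, 95% interval -0.82 to 0.44). The cap-binding proteins differed in level by several fold. EIF4E, the cap-binding subunit of eIF4F, was at 2.35 and 0.979 RPKM in the controls and 1.32 and 0.917 RPKM after induction, over a gene model of 14067 bases (log2 change -0.29, 95% interval -0.90 to 0.32). EIF4E2, a related cap-binding protein known as a repressor of translation, was at 10.2 and 8.40 RPKM against 10.9 and 8.68 RPKM (log2 change 0.07, 95% interval -0.44 to 0.57). EIF4E3, a further paralog, was at 10.3 and 6.65 RPKM against 5.0 and 4.40 RPKM (log2 change -0.71, limma adjusted p = 0.0404). Only for EIF4E3 of the 3 did the groups not overlap, and its call was lost without untreated control 1, GADD45g induced 1 or GADD45g induced 2 (0.118 to 0.202), with a log2 change of -0.43 without the first of these.

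The scaffolds overlapped or missed the threshold. EIF4G1, the main scaffold of eIF4F, was at 37.3 and 53.6 RPKM in the controls and 28.2 and 30.1 RPKM after induction (log2 change -0.60, limma adjusted p = 0.0820), which passed without untreated control 1 (0.0448) and was at -0.35 without untreated control 2 (0.295). EIF4G2, a relative that lacks the eIF4E-binding part, was at 86.7 and 82.2 RPKM against 74.2 and 91.4 RPKM (log2 change -0.04, 95% interval -0.58 to 0.51). EIF4G3 was at 22.6 and 30.8 RPKM against 19.7 and 28.1 RPKM (log2 change -0.16, 95% interval -0.74 to 0.42). Of the scaffolds, then, only EIF4G1 had both induced values below both controls. EIF4ENIF1, which carries eIF4E to the nucleus and to sites of mRNA storage, was at 3.51 ± 0.796 and 2.15 ± 0.189 RPKM (limma adjusted p = 0.0982).

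**Figure D3:**
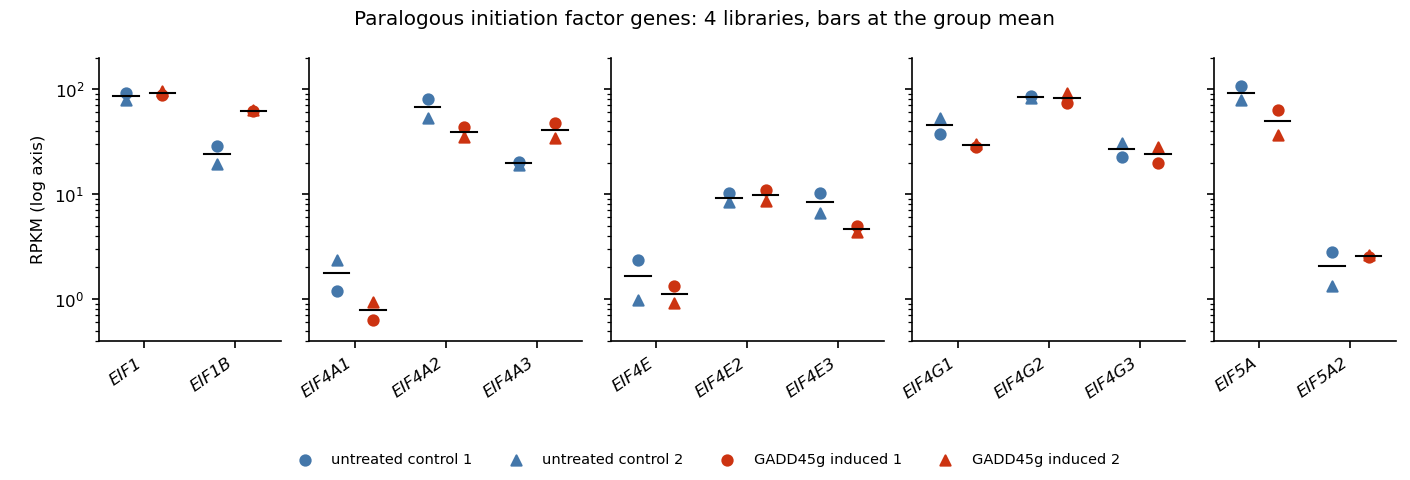
RPKM of paralogous initiation factor genes in each library on a log axis, with black bars at the group means. EIF1B and EIF4A3 lie higher after induction than in the controls. EIF4A1, EIF4A2, EIF4E3, EIF4G1 and EIF5A lie lower, and of these only EIF4E3 and EIF5A are called. EIF1, EIF4E, EIF4E2, EIF4G2, EIF4G3 and EIF5A2 overlap between groups.

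EIF5A, which carries the modified residue hypusine and helps ribosomes through difficult stretches of sequence, was at 107 and 78.1 RPKM in the controls and 63.5 and 36.2 RPKM after induction (log2 change -0.91 ± 0.31, limma adjusted p = 0.0352). The groups did not overlap, and the call was lost without untreated control 1, untreated control 2 or GADD45g induced 2 (0.0710 to 0.291), with a log2 change of -0.52 without the last of these. Its paralog EIF5A2 was at 2.81 and 1.32 RPKM against 2.53 and 2.61 RPKM (log2 change 0.26, 95% interval -0.31 to 0.84). EIF6, which keeps the ribosomal subunits apart, is not listed in the induced 1 file as used here. It stood at 31.1 and 36.2 RPKM in the controls and 31.5 RPKM in GADD45g induced 2, within the range of the controls, and was not tested. EIF5AL1, a copy of EIF5A missing from the same file, had 10, 13 and 1 reads. EIF4E1B was listed at 0 in all 4 libraries, and EIF2S3B and EIF3CL had 0 to 4 reads in each. EIF3C and EIF3CL are near-identical copies. The low level of EIF3C (0.485 to 3.14 RPKM) may depend on how shared reads were assigned, which is not stated and was not tested. The level of EIF1AY, the Y-linked copy of EIF1AX, is not given.

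Regulators of eIF2 and eIF4E were counted from lists that hold no initiation factor genes. Among 11 tested eIF2 alpha kinases, phosphatase subunits and their modulators 1 was higher and 1 lower (9.09% each, against 12.2% and 26.7% of all tested genes; median log2 change 0.08). PPP1R15A, the stress-induced subunit that directs phosphatase to eIF2 alpha, was at 44.4 and 55.1 RPKM in the controls and 168 and 150 RPKM after induction (log2 change 1.66 ± 0.25, limma adjusted p = 0.000470). PPP1CC, a catalytic subunit, was 2.83-fold lower (limma adjusted p = 0.00194). IMPACT, an inhibitor of the kinase GCN2, had a log2 change of -0.69 and did not pass (0.0618). It passed without untreated control 2 (0.0401) and was at -0.39 without untreated control 1 (0.326). The 4 kinase genes EIF2AK1, EIF2AK2, EIF2AK3 and EIF2AK4 had log2 changes of -0.44, 0.08, 0.30 and 0.13, none of which passed (limma adjusted p = 0.178 to 0.802).

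Of 12 tested regulators of eIF4E and eIF4A 2 were higher (16.7%) and 4 lower (33.3%), near the 12.2% and 26.7% of all tested genes (median -0.39). MKNK2, a kinase that phosphorylates eIF4E, rose from 12 and 15.7 RPKM to 68.4 and 57.9 RPKM (log2 change 2.12 ± 0.24, limma adjusted p = 8.98e-05). EIF4EBP1, which sequesters eIF4E, fell from 78.7 and 82.0 RPKM to 36.5 and 19.1 RPKM (log2 change -1.57 ± 0.30, limma adjusted p = 0.00205). PDCD4, an inhibitor of eIF4A, was 2.53-fold lower and LARP1, which binds messages that start with a pyrimidine tract, 2.12-fold lower; the call of LARP1 (adjusted p = 0.0122) was lost without untreated control 2 (0.0819) or GADD45g induced 1 (0.0841). Groups did not overlap for MKNK2, EIF4EBP1, PDCD4 or LARP1. With no filter on low values EIF4EBP1 (0.0621) and LARP1 (0.0971) were not called.

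Among 11 tested poly(A)-binding, recycling and auxiliary proteins 5 were lower (45.5%, against 26.7% of all tested genes) and 0 higher (median -0.59). After TMM scaling 4 were lower (36.4%, against 19.0%). ABCE1, the ATPase that splits ribosomes for recycling, fell from 28.9 and 22.4 RPKM to 4.02 and 4.72 RPKM (log2 change -2.30 ± 0.23, limma adjusted p = 3.99e-05), a larger decrease than that of any initiation factor gene tested here. PABPC1, the poly(A)-binding protein that contacts eIF4G, fell from 403 and 461 RPKM to 128 and 151 RPKM (log2 change -1.62 ± 0.26, limma adjusted p = 0.000697). SERBP1, a ribosome-binding protein, was 2.96-fold lower (limma adjusted p = 0.00195, or 0.0562 when low genes were not filtered) and PABPC4 2.00-fold lower (0.00617; 0.0538 without GADD45g induced 2). The plot of regulators shows these genes beside those not called.

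**Figure D4:**
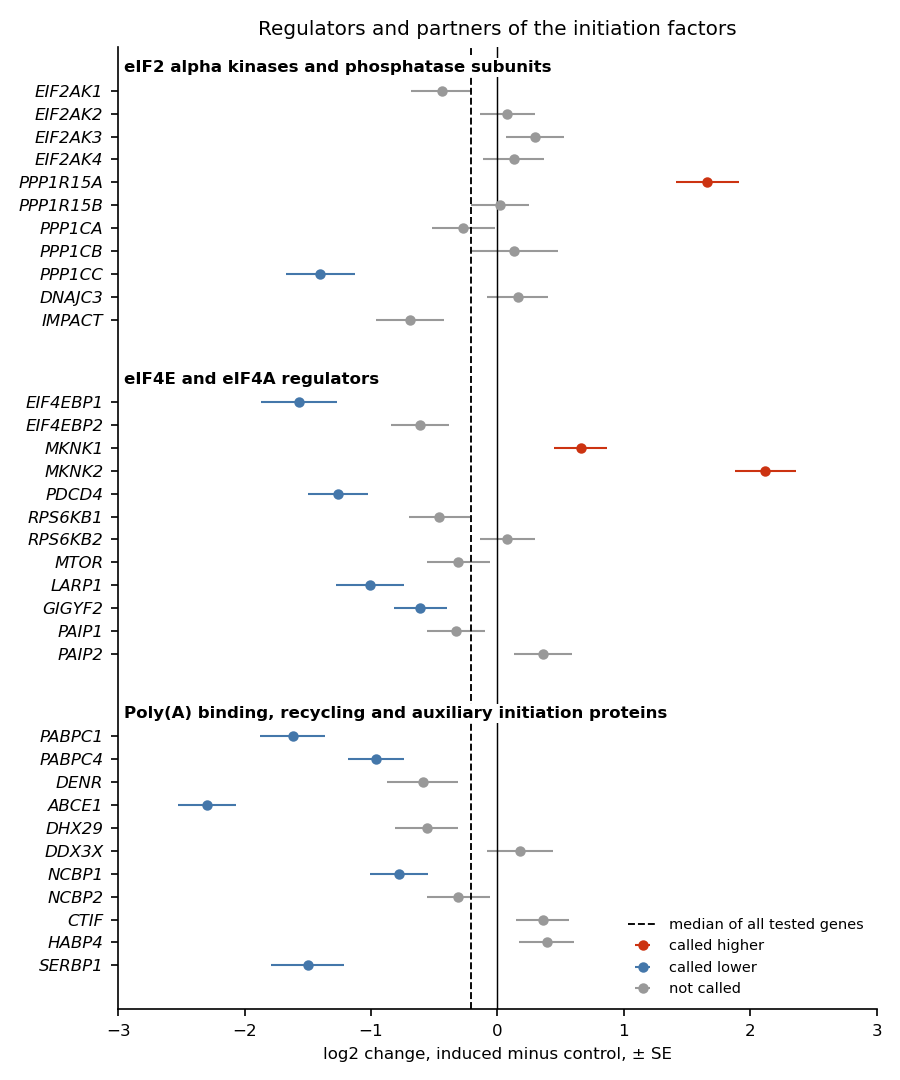
Log2 change (GADD45g induced minus untreated control) with the standard error for the tested genes of 3 lists of regulators and partners, coloured by the limma call. PPP1R15A, MKNK1 and MKNK2 are called higher and ABCE1, at -2.30, lies farthest to the left.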

How the data were processed

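RNA was sequenced from 2 untreated and 2 doxycycline-induced MOLM-13 libraries, grouped by the titles and treatment labels; replicate numbers follow the suffix of the titles. The authors deposited 1 RPKM value per Ensembl gene ID, per the file headers. TopHat, Cuffnorm, Cuffdiff and hg19 appear in the submitters' processing notes without roles or versions; the sources used here do not give how reads in overlapping genes were counted. One file (GADD45g induced 1) ends after 27332 of 57820 IDs, which hold 93.3% of protein-coding IDs. Symbols came from a table of gene names (51996 IDs matched) and gene types and exon overlaps from GENCODE 29, which is of another build, so no hg19 coordinates are given.

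IDs that share a symbol were added together, and the 10762 genes whose mean over the 4 libraries reached 1 RPKM were tested. Groups were compared on log2(RPKM + 1) with limma 3.58.1 (R 4.3.3; eBayes with trend; 2 residual and 8.78 prior degrees of freedom); p-values are two-sided and Benjamini-Hochberg adjusted across these genes. Low values were whole multiples of 1 read in 100.0% of cases (within 0.01 reads, up to 20 reads), which gave the depths and the reads of 98.5% of 10818 tested IDs. Tested initiation factors had 64 to 16965 reads. Fits were tested on simulated data. Alternatives were other pseudocounts, filters, scalings and priors, a replicate block, each library left out, genes missing from 1 file kept, and voom on the recovered reads. Differences within each replicate number were added after seeing the data.

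Members, lists and motifs were chosen with earlier results of these data known. The ratios within a library were not among the planned comparisons. Named genes are all initiation factors and up to 4 genes of each other list with the smallest adjusted p. Of the initiation factors, the 10 largest decreases, those called higher and 5 groups of paralogs have values in every library. The eIF2 kinases, MYC, EEF1A1, EEF1A2, EEF2 and MTIF3 were named after their values were seen. The result of 1 further marker list is not reported here.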

Additional observations from a re-analysis of the deposited data

How the results depend on the processing

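Calls over all tested genes were 4186, and 2464 with no filter on low values; leaving out 1 library gave 2605 to 3580. Initiation factor genes called were 23 (2 higher and 21 lower). With no filter on low values they were 13 (1 and 12), with TMM scaling 15 (2 and 13), and without 1 library 15 to 18, of which 1 to 2 higher and 13 to 17 lower. The cause of these differences was not tested, and the fits without 1 library also rest on fewer libraries. None of the 23 called initiation factor genes changed direction in any of the 17 alternatives in which it was tested. Genes near 0 that were not called did: with upper quartile, TMM or quantile scaling, or the median change set to 0, EIF5 was at 0.13, 0.21, 0.11 and 0.17, EIF2B2 at 0.10, 0.18, 0.17 and 0.16, EIF4G2 at 0.14, 0.22, 0.01 and 0.18, EIF4G3 at 0.01, 0.09, 0.01 and 0.05, and ETF1 at 0.06, 0.13, 0.05 and 0.10. EIF4H was at 0.07 with TMM scaling and 0.02 with the median shifted. Without 1 library the log2 change ran from -0.16 to 0.08 for EIF5, -0.13 to 0.02 for EIF2B2, -0.07 to 0.17 for EIF2B4, -0.26 to 0.55 for EIF3G, -0.67 to 0.09 for EIF4E, -0.08 to 0.22 for EIF4E2, -0.18 to 0.11 for EIF4G2, -0.41 to 0.09 for EIF4G3, -0.47 to 0.09 for EIF4H, -0.09 to 0.62 for EIF5A2 and -0.26 to 0.02 for ETF1. Fits with the replicate block, which paired libraries by title suffix, called 25 initiation factors lower and 2 higher. The added calls were EIF2S1, EIF4A1, EIF4A2 and EIF4G1. The suffixes are not stated to pair the libraries; the 2 replicate differences correlated across 10762 genes with Pearson's r = 0.35. Among tested initiation factors the lowest read counts were those of EIF3C and EIF4A1, with 64 each in GADD45g induced 1.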

Other observations

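A list of elongation factors and related genes had 10 tested genes. Of these 4 were lower (40%, against 26.7% of all tested genes) and 0 higher (median log2 change -0.54). After TMM scaling 3 were lower (30%, against 19.0%). The list also holds EEF2K, EEF1E1, DHPS and DOHH, which are not elongation factors. Its lower calls include EEF2K and EEF1E1, so these shares do not describe elongation factors alone. EEF1B2, the exchange factor for eEF1A, fell from 76.2 and 56.9 RPKM to 15.5 and 15.0 RPKM (log2 change -2.04, limma adjusted p = 0.000108), and EEF2K, the kinase that inhibits eEF2, was 2.39-fold lower (0.00247). EEF1E1, a component of the aminoacyl-tRNA synthetase complex, was 4.52-fold lower (0.00346), but passed the filter only through the controls, with 21 and 14 reads in the induced libraries, so this fold is a description. EEF1D was 1.83-fold lower (0.0164), a call lost without untreated control 1 (0.0662), untreated control 2 (0.0666) or GADD45g induced 2 (0.157). EEF1A1, which carries aminoacyl-tRNA to the ribosome, overlapped between groups at 105 ± 12.5 and 120 ± 10.6 RPKM (SD, n = 2). EEF2 was at 659 and 979 RPKM in the controls and 523 and 450 RPKM after induction. Its groups did not overlap, and it did not pass (log2 change -0.73, limma adjusted p = 0.0739). EEF2 passed with quantile normalization (0.0268) but not with TMM scaling (0.235). EEF1A2 followed the epithelial markers, at 4.54 and 3.99 RPKM in control 1 and induced 1 and at 0 and 0.0680 RPKM in control 2 and induced 2.

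Of 5 tested termination genes 2 were lower (40%) and 1 higher (20%), against 26.7% and 12.2% of all tested genes. GSPT1, the release factor eRF3a, was 2.17-fold lower (limma adjusted p = 0.00385) and N6AMT1, which methylates a release factor, 2.95-fold lower (0.00367; 0.0590 without GADD45g induced 2). PELO, which acts on stalled ribosomes, was 1.84-fold higher (0.0155), a call lost without untreated control 2 (0.0542), GADD45g induced 1 (0.130) or GADD45g induced 2 (0.0707). Of 10 tested mitochondrial initiation, elongation and recycling genes 3 were lower (30%, near the 26.7% of all tested genes) and 0 higher (median -0.43). After TMM scaling 1 was lower and 1 higher. GFM1, a mitochondrial elongation factor, was 3.30-fold lower (limma adjusted p = 0.000579). MRRF, the mitochondrial recycling factor, was 1.78-fold lower (0.0209), a call lost without untreated control 2, GADD45g induced 1 or GADD45g induced 2 (0.0803 to 0.136). TUFM, the mitochondrial EF-Tu, was 1.84-fold lower (0.0261), a call lost without untreated control 1, untreated control 2 or GADD45g induced 2 (0.102 to 0.243). The mitochondrial initiation factors MTIF2 and MTIF3 had log2 changes of -0.60 and -0.11 and did not pass (0.0618 and 0.726).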
